A study of Mus musculus with 6 samples.

Results

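The comparison described here set ventricles with an active form of ATF6α against ventricles that carried the driver transgene alone, on 4 of the 6 arrays of the series: 2 from ATF6α-cn mice and 2 from control mice. These 4 were taken by their labels, and all 22206 transcript clusters of the array, the platform's unit for a gene, were read on each of them as log2 signals. The remaining 2 arrays, from ATF6β-cn mice, entered the statistical fit as a group of their own and are shown only where they differ. RNA came from whole ventricles of C57BL/6 mice that were 8 weeks old and had been off doxycycline (DOX) chow for 4 weeks, and was hybridized to Affymetrix Clariom S mouse arrays.

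All groups, controls included, carried the αMHC-tTA transgene, which makes the tetracycline transactivator under the α-myosin heavy chain promoter and hence in cardiomyocytes. Control mice had this transgene and no responder. ATF6α-cn mice had in addition a tetracycline operator dependent α-myosin heavy chain transgene that encodes the N-terminal, transcriptionally active part of mouse ATF6α with a FLAG tag, and ATF6β-cn mice had the corresponding part of ATF6β with a Myc tag. DOX in the food kept the responders silent until weaning in these double transgenic mice. Expression was therefore restricted to cardiomyocytes, whereas the RNA also held that of every other cell of the ventricle, and the number of founder lines was not stated in the methods. The labels call the arrays of a group biological replicates, the study used mice of both sexes, and which sample came from which sex is not stated for the arrays.

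ATF6α is a transmembrane protein of the endoplasmic reticulum (ER) that acts as 1 of the sensors of the unfolded protein response (UPR). When unfolded proteins accumulate it travels to the Golgi, proteases release its N-terminal part, and this part enters the nucleus and, together with NF-Y, binds ER stress response elements (ERSE) in the promoters of ER chaperone genes. Its known targets include chaperones of the BiP system, protein disulfide isomerases and components of ER-associated degradation (ERAD), the route by which misfolded proteins leave the ER for the proteasome. In ATF6α-cn mice the released form is supplied directly, without a need for ER stress or cleavage.

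The array medians lay between 5.58 and 5.61 on the log2 scale, both groups correlated at 0.990 between their replicates, and an ATF6α-cn array correlated with a control array at 0.987 to 0.988. A cluster is said here to have risen or fallen where its adjusted p was under 0.05 by limma, with p adjusted over all 22206 clusters. Background was set at 5.03, a level that 95% of 1407 clusters of olfactory and vomeronasal receptors did not exceed. Ventricular myocyte markers were near the top of the scale in every sample: Myh6, the adult cardiac myosin heavy chain, read 19.71 and 19.67 in control and 19.71 and 19.71 in ATF6α-cn. The highest signals on these arrays ended at 19.9, so the brightest clusters had little room to rise.

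The Atf6 cluster did not report the transgene. Its log2 signal was 13.09 and 13.04 in control and 12.70 and 13.07 in ATF6α-cn, so that the groups overlapped. The log2 fold change was −0.18 (95% interval −0.72 to 0.35, adjusted p = 0.850 by limma). The stretch of the Atf6 message that the probes match was not named in the labels. Probes outside the stretch carried by the transgene could not read it, so this cluster does not check the labels. By qPCR the study reported more Atf6 message in this line. Atf6b, the paralog, read 8.72 and 8.63 in control and 8.65 and 9.18 in ATF6α-cn (log2 fold change 0.24, adjusted p = 0.800 by limma).

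In ATF6α-cn ventricles 21 transcript clusters rose, which is 0.0946% of those tested, and 0 fell. Without adjustment, p was under 0.05 for 986 clusters upward (4.44%) and 995 downward (4.48%). By fold alone 220 clusters (0.991%) were up at least 2-fold and 98 (0.441%) down, so a cluster that did not pass is not shown to be unchanged. Of the 21, 13 belonged to the lists of ER folding and degradation genes, counting Pdia4 and Manf, whose clusters also match Mir704 and Rbm15b, and 8 belonged to none of these lists. The smallest log2 fold change among the 21 was 1.72, and the median over all clusters was −0.03.

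With each array left out in turn, 9 to 13 clusters rose. Derl3, Slc24a5, Pdia4, Sdf2l1, Manf, Far1, Hyou1 and Hsp90b1 passed in all 4 of these fits. Creld2 passed in 2, and Nde1, Ube2c, Slc20a1 and Sel1l in 1. Ints3, Appl1, Dnajb11, Fkbp7, Dnajc3, Chka, Calr and Hspa5 passed in 0 of the 4, with log2 fold changes that stayed at 1.56 or more.

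**Figure D1:**
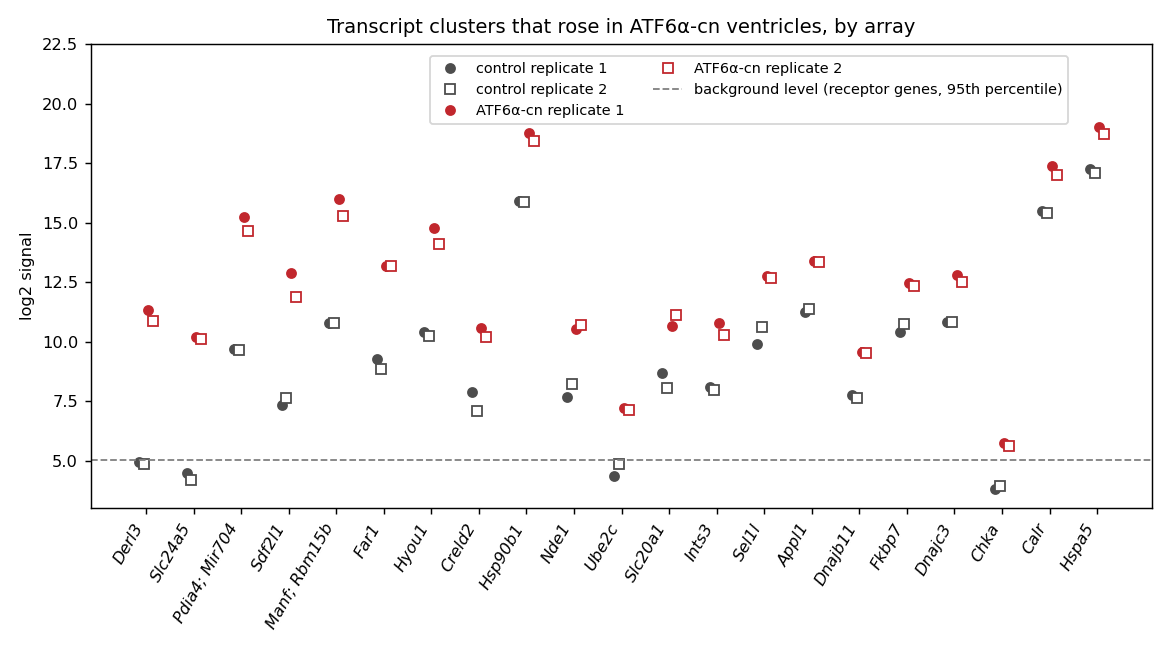
Log2 signal (vertical axis) of the 21 clusters that rose in ATF6α-cn ventricles, with 1 point per array (circles, replicate 1; squares, replicate 2; grey, control; red, ATF6α-cn) and the background level of 5.03 as a dashed line. The red points lie above the grey points for every cluster, and both control arrays are under the background level for Derl3, Slc24a5, Ube2c and Chka.

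As the plot of signals by array shows, the 21 clusters started from levels that ranged from background to near the top of the scale. Set against the control level, the clusters that rose were spread over the whole range, as the plot of change against level shows.

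**Figure D2:**
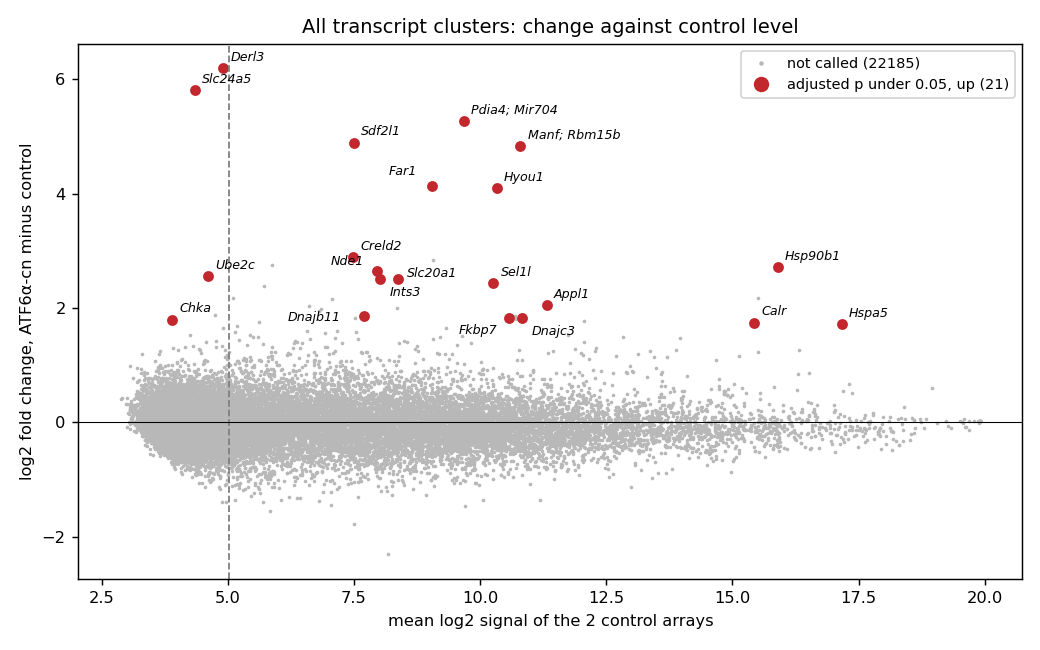
Log2 fold change, ATF6α-cn minus control (vertical axis), against the mean log2 signal of the 2 control arrays (horizontal axis) for all 22206 clusters, with the 21 that rose in red and the background level of 5.03 as a dashed line. The red points run from 1.72 to 6.19, and 0 clusters passed below the line at 0.

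Because ERSE are the known binding sites of ATF6, the promoters of the genes that rose were searched. RefSeq windows of 300 bases around the annotated start (build GRCm38.p6) were at hand for 18 of the 21 genes, and Manf, Hyou1 and Appl1 had none in the table. Slc20a1 had 2 windows, and a gene was counted where any window of it held the motif. The ERSE was made of CCAAT, 9 free bases and CCACG and was searched on both strands. It was found for 6 of the 18 genes (33.3%), namely Derl3, Creld2, Hsp90b1, Dnajc3, Calr and Hspa5. Over all genes of the array with a window it was in 28 of 16277 (0.172%), and over all RefSeq windows in 39 of 32851 (0.119%). The ERSE is known from promoters of ER chaperone genes, so matches in risen genes of this kind are not independent evidence. These elements are shown because the windows of these risen genes share their fixed letters, read in the direction that puts CCAAT first, with the fixed letters in capitals.
Derl3: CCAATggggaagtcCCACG
Creld2: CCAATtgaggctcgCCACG
Hsp90b1, upstream copy: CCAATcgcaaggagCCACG
Hsp90b1, downstream copy: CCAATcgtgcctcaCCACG
Dnajc3: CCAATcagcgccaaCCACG
Calr: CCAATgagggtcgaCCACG
Hspa5: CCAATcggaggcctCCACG
Dnajb11, ERSE-II: ATTGGcCCACG

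The Derl3 element lay at chr10:75893242-75893260, 156 bases before the start, and that of Hspa5 at chr2:34772025-34772043, 65 bases before it. Hsp90b1 held a pair, at chr10:86705638-86705656 and chr10:86705533-86705551, which began 212 and 107 bases before the start. Those of Creld2 (chr15:88819520-88819538), Dnajc3 (chr14:118937827-118937845) and Calr (chr8:84847075-84847093) began 126, 105 and 162 bases before theirs. In the windows of Derl3, Creld2, Calr and the downstream copy of Hsp90b1 the element stood on the strand opposite to the gene. The spacer letters differed between all 7 copies.

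The windows of 3 of these genes are printed along the strand of the gene, 5′ to 3′, with the fixed letters of the element in capitals, or their reverse complement where the element is on the other strand. They show the gene with the greatest rise, the gene with a pair of elements, and the gene for BiP. The Derl3 window is chr10:75893148-75893447 on the plus strand, the Hsp90b1 window chr10:86705395-86705694 on the minus strand and the Hspa5 window chr2:34771840-34772139 on the plus strand.
Derl3: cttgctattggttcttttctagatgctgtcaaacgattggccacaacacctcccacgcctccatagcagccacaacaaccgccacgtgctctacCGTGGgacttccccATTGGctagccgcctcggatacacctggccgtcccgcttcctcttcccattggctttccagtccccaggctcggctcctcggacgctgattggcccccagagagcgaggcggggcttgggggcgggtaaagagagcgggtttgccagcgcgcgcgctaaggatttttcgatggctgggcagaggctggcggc
Hsp90b1: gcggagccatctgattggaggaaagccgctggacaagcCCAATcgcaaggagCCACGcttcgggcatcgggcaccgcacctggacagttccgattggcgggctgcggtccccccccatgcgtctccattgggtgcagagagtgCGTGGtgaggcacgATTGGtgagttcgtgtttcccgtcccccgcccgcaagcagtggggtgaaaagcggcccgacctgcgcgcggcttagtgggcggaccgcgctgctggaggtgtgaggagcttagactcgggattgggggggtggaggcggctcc
Hspa5: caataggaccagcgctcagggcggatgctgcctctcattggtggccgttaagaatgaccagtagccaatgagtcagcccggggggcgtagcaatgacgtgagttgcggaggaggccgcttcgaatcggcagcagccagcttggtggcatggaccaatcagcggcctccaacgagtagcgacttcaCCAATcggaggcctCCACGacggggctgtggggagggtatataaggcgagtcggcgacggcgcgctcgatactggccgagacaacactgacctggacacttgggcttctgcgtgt

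ERSE-II, a shorter element made of ATTGG, 1 free base and CCACG, was found for 1 of the 18 genes (5.56%), Dnajb11, against 0.0553% of array genes. It lay at chr16:22857852-22857862, after the annotated start, in this window of chr16:22857595-22857894 on the plus strand, where its letters are in capitals.
Dnajb11: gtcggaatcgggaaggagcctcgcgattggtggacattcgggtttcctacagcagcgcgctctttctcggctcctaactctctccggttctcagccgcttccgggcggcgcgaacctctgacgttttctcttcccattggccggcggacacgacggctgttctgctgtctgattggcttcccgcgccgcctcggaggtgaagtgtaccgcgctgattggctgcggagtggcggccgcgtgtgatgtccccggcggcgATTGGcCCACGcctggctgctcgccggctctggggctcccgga

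Of other elements, TGACGTGG, which XBP1 and ATF6 are known to bind, was found for 0 of the 18 genes and for 0.872% of array genes. The cAMP response element TGACGTCA was in 0 of 18 and 2.61%. With the last base of the ERSE free to vary the Pdia4 window joined, which made 7 of 18 (38.9%) against 0.528%. The short parts are common: CCACG, which also forms part of the reverse complement of TGACGTGG, was found for 16 of 18 genes (41.3% of array genes) and CCAAT for 17 of 18 (42.1%). Slc24a5 held neither of these short parts in its window. A match is a stretch of letters and was not tested for binding, and a window without a match says only that the letters are not in it.

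**Figure D3:**
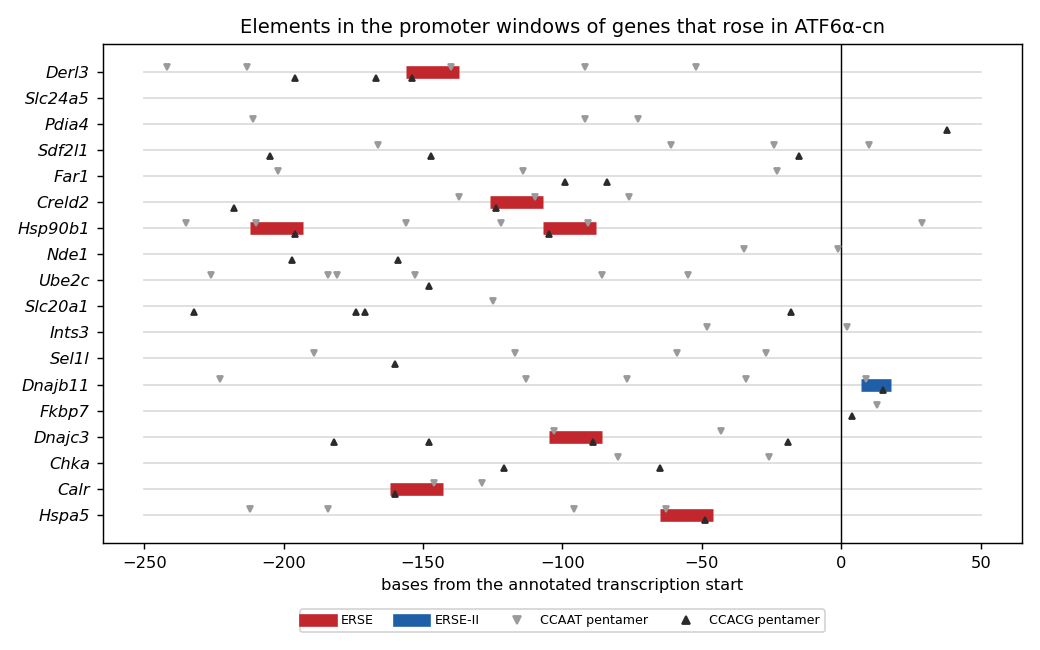
Position of ERSE (red), ERSE-II (blue) and of the CCAAT and CCACG parts (triangles) in the promoter windows of the 18 genes with a window, in bases from the annotated start (horizontal axis), with genes ordered by their log2 fold change. Red bars stand in 6 windows, from 212 to 65 bases before the start, and the blue bar of Dnajb11 lies after it.

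Read from the promoters to the signals, 27 genes with a cluster of their own held an ERSE. Of these, 6 rose, 8 were at or above 2-fold and 17 were above 0, where 0.0946%, 0.991% and 46.7% of all clusters were. Their median log2 fold change was 0.26, and several, such as Acnat2, Olfr59 and Tdrd9, had a control mean under background. Both of those at 2-fold that did not pass are ER genes, Pdia6, a protein disulfide isomerase (1.53), and Syvn1, the ERAD ubiquitin ligase also called HRD1 (1.30). Canx, the lectin chaperone calnexin, holds an ERSE and read 13.55 and 13.65 in control and 13.83 and 13.70 in ATF6α-cn, a log2 fold change of 0.16 (adjusted p = 0.860 by limma). Alg12, an ER mannosyltransferase with an ERSE in its window, was at −0.36 on that scale (adjusted p = 0.710 by limma). Of the 9 array genes with an ERSE-II, Dnajb11 rose, Herpud1 was at 1.10 without passing, and the median was 0.25.

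The ER HSP70 and HSP90 chaperones with their cochaperones formed the group with the most members that rose: 7 of 19 measured. Over all clusters 0.0946% rose. This list had a median log2 fold change of 0.29 and 0 that fell. The 7 include Creld2, and the list was drawn up with earlier results of these data known. Hspa5 encodes BiP, the ER member of the HSP70 family that binds unfolded chains and holds the UPR sensors inactive. Its log2 signal was 17.25 and 17.08 in control and 19.03 and 18.73 in ATF6α-cn, a 3.29-fold rise (log2 fold change 1.72, standard error 0.22, adjusted p = 0.0370 by limma). Hsp90b1, the ER HSP90 paralog also called GRP94, went from 15.92 and 15.88 to 18.77 and 18.44, a 6.55-fold rise (log2 fold change 2.71, standard error 0.22, adjusted p = 0.00276 by limma). Both were already among the bright clusters in control ventricles, and their ATF6α-cn arrays stood clear of the controls by more than a log2 unit.

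Hyou1, an HSP110-type nucleotide exchange factor of BiP, rose more steeply. Its control level was lower than those of Hspa5 and Hsp90b1, and the part of level in the size of the rise was not tested. Hyou1 read 10.41 and 10.25 in control and 14.77 and 14.10 in ATF6α-cn, a 17.2-fold rise (log2 fold change 4.10, standard error 0.27, adjusted p = 5.34e-04 by limma). Sdf2l1, which works with ER J-domain proteins at BiP, had the largest change of the group, from 7.35 and 7.64 to 12.88 and 11.89, a 29.7-fold rise (log2 fold change 4.89, adjusted p = 6.90e-04 by limma). Dnajb11, a J-domain cochaperone of BiP, went from 7.76 and 7.62 to 9.57 and 9.54 (log2 fold change 1.86, adjusted p = 0.0178 by limma). Dnajc3, a J-domain cochaperone also known as an inhibitor of PERK, went from 10.83 and 10.84 to 12.79 and 12.53 (log2 fold change 1.82, adjusted p = 0.0222 by limma). In both J-domain genes the 2 groups were separate and the replicates close together.

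Creld2, a secretory pathway protein with a disulfide isomerase activity, was more variable in control, at 7.88 and 7.10, and reached 10.57 and 10.20 in ATF6α-cn (log2 fold change 2.89, adjusted p = 0.0107 by limma). The cluster of Manf, which encodes the ER-resident, secreted BiP partner ARMET, read 10.80 and 10.80 in control and 15.98 and 15.28 in ATF6α-cn, a 28.5-fold rise (log2 fold change 4.83, adjusted p = 1.77e-04 by limma). This cluster also matches Rbm15b, so it is not in the count of 7 and the share of each gene in the signal cannot be told apart. Among members that did not pass, Dnajb9, a J-domain protein known to hold IRE1 inactive through BiP, read 13.10 and 13.17 in control and 14.54 and 14.10 in ATF6α-cn (log2 fold change 1.19, adjusted p = 0.212 by limma).

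Of 12 lectins and glycan-dependent folding factors, 1 rose (median log2 fold change 0.20), against 0.0946% of all clusters. Calr encodes calreticulin, the soluble lectin chaperone and calcium store protein of the ER, and went from 15.48 and 15.40 to 17.36 and 17.00, a 3.35-fold rise (log2 fold change 1.74, adjusted p = 0.0408 by limma). Uggt1, the glucosyltransferase that returns misfolded glycoproteins to the lectins, read 10.59 and 10.94 in control and 12.23 and 11.83 in ATF6α-cn, without passing (log2 fold change 1.26, adjusted p = 0.212 by limma). Its paralog Uggt2 was at −0.57.

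Among 9 ER prolyl isomerases and the collagen chaperone, Fkbp7, a prolyl isomerase of the ER lumen, rose from 10.43 and 10.74 to 12.46 and 12.35 (log2 fold change 1.82, adjusted p = 0.0238 by limma). Serpinh1, the collagen chaperone HSP47, was at 0.87 and did not pass. The relatives Fkbp9 and Fkbp14 were below 0, at −0.43 and −0.47, so the family was not uniform in sign.

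The protein disulfide isomerases were split between 1 steep rise and many small changes. Pdia4, the isomerase also called ERp72, shares its cluster with Mir704 and was left out of the list counts for that reason. This cluster read 9.69 and 9.67 in control and 15.25 and 14.65 in ATF6α-cn, a 38.7-fold rise (log2 fold change 5.27, standard error 0.25, adjusted p = 7.91e-05 by limma). Of the 26 members with a cluster of their own 0 passed. An unadjusted p under 0.05 by limma was found for 5, all upward, against 4.44% of all clusters upward. Pdia6 read 11.86 and 11.62 in control and 13.39 and 13.14 in ATF6α-cn (log2 fold change 1.53, adjusted p = 0.0799 by limma), and Pdia3, the partner of the lectin chaperones, was at 1.21 (adjusted p = 0.212 by limma). P4hb, the founding member PDI, was at 0.81, Erp29 at 0.80 and Pdia5 at 0.58.

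ERAD held the largest change of all. Derl3, a Derlin of the channel through which misfolded proteins leave the ER, read 4.96 and 4.86 in control, under the background level, and 11.32 and 10.89 in ATF6α-cn. Against the background level, or the control signal where that was higher, it was at least 67.1-fold higher, and the same kind of bound is used below for other clusters that started from background. The fitted log2 fold change was 6.19 (standard error 0.24, adjusted p = 3.64e-05 by limma). Sel1l, the scaffold of the HRD1 ligase complex, rose from 9.92 and 10.60 to 12.75 and 12.66, a 5.43-fold rise (log2 fold change 2.44, adjusted p = 0.0137 by limma).

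These were 2 of 36 measured ERAD genes, against 0.0946% of all clusters. The list as a whole had a median of −0.07 with 15 members above 0 and 21 below, where 46.7% of all clusters were above 0. Syvn1, the ligase that Sel1l holds, read 6.39 and 6.18 in control and 7.96 and 7.20 in ATF6α-cn (log2 fold change 1.30, adjusted p = 0.241 by limma). Herpud1, a membrane adaptor of the same complex, read 14.52 and 14.83 against 15.99 and 15.55 (log2 fold change 1.10, adjusted p = 0.289 by limma). The lectin Os9 was at 0.90 and the segregase Vcp at 0.88. In Syvn1 and Herpud1 both ATF6α-cn arrays were above both controls, and Erlin1, a regulator of inositol trisphosphate receptor degradation, was below them on both (−0.65).

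The other limbs of the UPR had no member that passed. Of 18 UPR sensors and factors 0 rose (median 0.14). Xbp1, the transcription factor that IRE1 splices and ATF6 is known to induce, read 12.16 and 11.90 in control and 13.26 and 13.15 in ATF6α-cn (log2 fold change 1.17, adjusted p = 0.195 by limma). Ern1, which encodes IRE1, was at 0.58 and Eif2ak3, which encodes PERK, at 0.45. The array measures all forms of the Xbp1 message together, so splicing was not read.

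Of 29 genes of the integrated stress response and amino acid synthesis, the program downstream of PERK and ATF4, 0 rose (median 0.12). Ddit3, which encodes CHOP, read 9.43 and 9.96 in control and 10.27 and 10.62 in ATF6α-cn (log2 fold change 0.75, adjusted p = 0.453 by limma). Aldh18a1, a proline synthesis enzyme, was at 0.86. In the opposite direction Cth, which makes cysteine from cystathionine, read 7.57 and 7.44 in control and 6.06 and 5.39 in ATF6α-cn (log2 fold change −1.78, adjusted p = 0.0872 by limma). Its 2 groups did not overlap, and it was 1 of the 2 genes that passed downward when the variance was allowed a trend with signal and the fit was robust (adjusted p = 0.0368).

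The machinery around folding showed 0 calls in either direction. These were 32 genes of N-glycan assembly (median 0.12), 25 of translocation and signal peptide cleavage (−0.07) and 40 of ER to Golgi traffic (−0.07). Ssr3, a subunit of the translocon-associated complex, had the largest change of the translocation list at 0.89, while the signal recognition particle genes Srp14 and Srp68 were at −0.67 and −0.66. Ergic3, a cargo receptor of early secretory traffic, was at −0.83. The plot of list members shows the ER folding lists with their few far members and medians near 0.

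**Figure D4:**
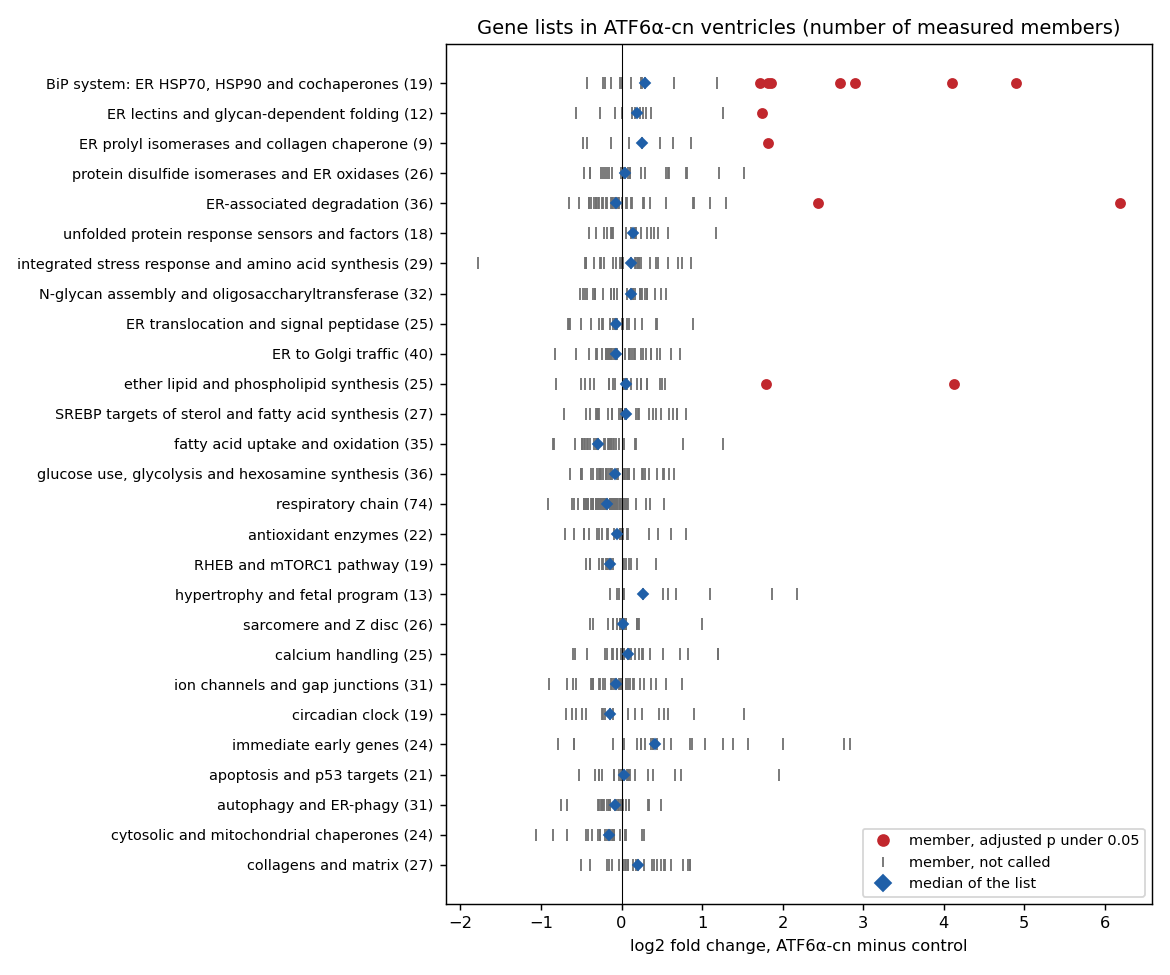
Log2 fold change, ATF6α-cn minus control (horizontal axis), of each measured member of 27 gene lists, with members that rose as red circles, others as grey ticks and the list median as a blue diamond; the number of members follows each name. The 13 red circles are genes of ER folding, ERAD and lipid synthesis, and medians lie between −0.29 and 0.41.

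Among the 8 clusters outside the ER lists, the largest rise was that of Slc24a5, a potassium-dependent sodium and calcium exchanger known for its part in pigmentation. It read 4.49 and 4.20 in control, under the background level, and 10.19 and 10.13 in ATF6α-cn, where it was at least 35.0-fold higher (log2 fold change 5.82, standard error 0.26, adjusted p = 6.95e-05 by limma). Slc20a1, a sodium-phosphate cotransporter, went from 8.71 and 8.05 to 10.67 and 11.11 (log2 fold change 2.51, adjusted p = 0.0174 by limma). The replicates of Slc24a5 were closer together in ATF6α-cn than in control.

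In the list of ether lipid and phospholipid synthesis 2 of 25 members rose (median 0.06), against 0.0946% of all clusters. Far1, the reductase that makes fatty alcohol for ether lipids, went from 9.27 and 8.84 to 13.17 and 13.19, a 17.5-fold rise (log2 fold change 4.13, standard error 0.23, adjusted p = 1.77e-04 by limma). Chka, choline kinase α, read 3.82 and 3.96 in control, under background, and 5.75 and 5.63 in ATF6α-cn, at least 1.58-fold higher (log2 fold change 1.80, adjusted p = 0.0222 by limma). The other 23 did not pass, and Pcyt1a, the enzyme that acts after choline kinase, was at −0.82. Of 27 sterol and fatty acid synthesis genes under SREBP control 0 passed (median 0.06), with Fasn, fatty acid synthase, at 0.64.

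The remaining 4 have known roles in the cytoplasm or nucleus. Nde1, a dynein regulator at the centrosome, went from 7.70 and 8.23 to 10.52 and 10.71 (log2 fold change 2.65, adjusted p = 0.0107 by limma). Ube2c, the ubiquitin-conjugating enzyme of the anaphase-promoting complex, read 4.37 and 4.85 in control, under background, and 7.20 and 7.15 in ATF6α-cn, at least 4.41-fold higher (log2 fold change 2.56, adjusted p = 0.00760 by limma). Appl1, an endosomal adaptor of adiponectin receptor signaling, went from 11.26 and 11.39 to 13.37 and 13.37 (log2 fold change 2.05, adjusted p = 0.0107 by limma). Ints3, a subunit of the Integrator complex, went from 8.08 and 7.97 to 10.78 and 10.27 (log2 fold change 2.50, adjusted p = 0.0118 by limma). In each of these genes both ATF6α-cn arrays stood above both controls by more than a log2 unit.

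The 5 clusters that came closest to the threshold without passing were all upward. Nans, the sialic acid synthase, read 7.20 and 7.14 in control and 8.87 and 8.66 in ATF6α-cn (log2 fold change 1.59, adjusted p = 0.0518 by limma). Dnaic1, a dynein chain of cilia, read 7.19 and 6.95 against 9.41 and 9.05 (log2 fold change 2.16, adjusted p = 0.0519 by limma). Piga, of the first step of glycosylphosphatidylinositol anchor synthesis in the ER, was at 1.58, Pdia6 at 1.53 and Arhgap39, a GTPase activating protein, at 1.46, each with an adjusted p of 0.0798 or 0.0799 by limma. All 5 passed when dim clusters were left out, which left 12619 to adjust over. On the inner side of the threshold stood Calr, Hspa5 and Fkbp7.

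Of 17 measured genes that the study followed by blot or qPCR in these lines 7 rose, 15 were above 0 and the median log2 fold change was 1.26. Over all clusters 0.0946% rose and 46.7% were above 0. The study picked these genes on this tissue, so their direction is not independent evidence. Those that rose were Derl3, Hyou1, Hsp90b1, Sel1l, Fkbp7, Calr and Hspa5, and Uggt1 and Syvn1 were the largest among the rest. When the variance could follow signal and the fit was robust, 11 of the 17 passed, the further 4 being Xbp1 (adjusted p = 0.00914), Dnajb9 (0.00992), Uggt1 (0.0237) and Herpud1 (0.0275) by limma, and with each array left out 3 or 4 passed.

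In the downward direction 0 clusters passed by limma, against 995 at an unadjusted p under 0.05. Among clusters above background with separate groups and 1 gene, the 10 with the lowest values ran from −2.31 for Gm7120, a predicted gene, to −1.32 for Aacs, which activates acetoacetate. Besides Cth they included Retnla, a product of alternatively activated macrophages (−1.54), Fbp2, the muscle fructose bisphosphatase (−1.47), Nat9 (−1.45), Ubxn10 (−1.37) and Bdh1, the mitochondrial enzyme of ketone body use (−1.36). Also in this group were Gm21060 (−1.35) and Lyrm4 (−1.35), a factor of iron-sulfur cluster assembly, whose control arrays differed by an SD of 1.53. Both ATF6α-cn arrays were under background for Retnla (4.43 and 4.14) and Gm21060 (4.57 and 4.83), and 1 of them for Ubxn10 (4.80) and Aacs (4.88). The size of these falls therefore rests on signals that are bounds only. Over the 10 clusters the adjusted p ran from 0.0872 for Cth to 0.555 for Lyrm4 by limma.

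The lists of energy metabolism held 0 calls, and most of their members were below 0. Of 35 genes of fatty acid uptake and oxidation 30 were below 0, with a median log2 fold change of −0.29, and 20 had both ATF6α-cn arrays below both controls, where 21.6% of all clusters did. Cpt2, the inner membrane carnitine palmitoyltransferase, read 13.14 and 13.22 in control and 12.42 and 12.28 in ATF6α-cn (log2 fold change −0.83, adjusted p = 0.314 by limma). Acads, the short-chain acyl-CoA dehydrogenase, was at −0.85. Of 74 respiratory chain genes 63 were below 0 (median −0.18) and 42 had separate groups in that direction, the lowest being Atp5e, a subunit of ATP synthase (11.98 and 11.94 in control, 11.08 and 11.00 in ATF6α-cn, log2 fold change −0.92, adjusted p = 0.289 by limma).

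Signal level moved with the share below 0. Among all clusters with a control mean of 12 or more, 63.6% were below 0 and 35.1% had separate groups downward, with a median of −0.09, while among clusters under background 49.4% were below 0 and the median was 0.00. The mean control signal of the respiratory chain list was 15.7 and that of the fatty acid list 13.9, both in the bright class. The part of signal level in the result was not tested. In RNA of whole ventricles a smaller share of a cell type and less of a message per cell cannot be told apart.

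Other metabolic and protective lists held 0 calls too. These were 36 genes of glucose use and glycolysis (median −0.09), 22 antioxidant enzymes (−0.06), 31 of autophagy (−0.08) and 24 cytosolic and mitochondrial chaperones (−0.16). Cat, the peroxisomal catalase, read 15.81 and 15.84 in control and 16.50 and 16.38 in ATF6α-cn (log2 fold change 0.62, adjusted p = 0.448 by limma). Gclc, which limits glutathione synthesis, was at 0.80. Of the 24 chaperones outside the ER 20 were below 0, Hspb3, a small heat shock protein of muscle, lowest at −1.06.

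The pathway of RHEB and mTORC1, through which ATF6α is known to act on growth of the heart, showed 0 calls among 19 genes (median −0.15), with Rheb itself at −0.10. Sarcomere and Z disc genes (26, median 0.02), calcium handling (25, median 0.08) and ion channels (31, median −0.07) also held 0 calls. Of calcium genes, the ER calcium release channels Itpr2 and Itpr1 had log2 fold changes of 1.20 and 0.83, and Atp2b1, a plasma membrane calcium pump, 0.72, each with separate groups and an adjusted p over the threshold (0.356, 0.398 and 0.427 by limma).

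Hypertrophy and immediate early genes were mostly higher on replicate 2 of ATF6α-cn than on replicate 1. Of 13 hypertrophy genes 4 had both ATF6α-cn arrays above both controls and 0 had both below. Over all clusters 17.9% and 21.6% did. Nppa, which encodes atrial natriuretic peptide, a marker of the fetal program, read 15.52 and 15.51 in control and 16.89 and 18.49 in ATF6α-cn (log2 fold change 2.18, adjusted p = 0.215 by limma). Rcan1, a calcineurin regulator and target, read 10.65 and 10.74 against 11.77 and 13.36 (log2 fold change 1.87, adjusted p = 0.301 by limma). Nppb, the B-type peptide, read 12.20 and 12.11 against 11.99 and 14.53, so that only replicate 2 stood above the controls. Myh7, the fetal myosin heavy chain, was at −0.05.

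Most immediate early genes, which answer growth and stress signals within minutes, were also higher on replicate 2, and many were above the controls on both arrays. Egr1, a zinc finger factor of this class, read 8.48 and 9.66 in control and 10.61 and 13.20 in ATF6α-cn (log2 fold change 2.83, adjusted p = 0.462 by limma). Nr4a3, an orphan nuclear receptor, read 6.17 and 5.59 against 6.05 and 11.23, so that replicate 1 lay among the controls. Of 24 such genes 20 were above 0, with a median of 0.41 and 0 calls. Both ATF6α-cn arrays were above both controls for 13 and below both for 3, against 17.9% and 21.6% of all clusters. In 21 the signal was higher in replicate 2 than in replicate 1 of ATF6α-cn, and the median log2 gap over the 24 was 0.81. Over all clusters that median gap was −0.01.

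The 13 hypertrophy genes had a median of 0.27 with both arrays, 0.02 without ATF6α-cn replicate 2 and 0.69 without replicate 1. For the immediate early genes the median was 0.27 without replicate 2 and 0.60 without replicate 1. In the fit without replicate 1, Nppa (log2 fold change 2.98, adjusted p = 0.0321) and Cdkn1a (3.37, adjusted p = 0.0337) passed by limma on the lone array, which is taken to vary like the other groups. Cdkn1a, the cell cycle inhibitor p21, read 7.11 and 6.50 in control and 7.33 and 10.17 in ATF6α-cn. In all, 19 clusters differed by more than 2 log2 units between the ATF6α-cn arrays, 18 of them higher in replicate 2, against 10 clusters between the control arrays, 6 of them higher in replicate 2. Pdk4, a kinase that shuts off pyruvate oxidation, was another, at 11.83 and 12.71 against 11.93 and 15.11, and Tnfrsf12a, Apold1, Tfrc, Abra and Cldn5 were among the rest. What set this mouse or sample apart was not tested.

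The risen ER clusters were in the opposite order. All 13 risen clusters of the ER lists were higher in replicate 1 than in replicate 2 of ATF6α-cn, by a median log2 gap of 0.36, where 51.5% of all clusters were. Of the 8 others 5 were. The ER lists as a whole differed in this order. Higher in replicate 2 were 3 of 19 members of the BiP list, 8 of 25 of translocation and 10 of 26 disulfide isomerases and oxidases. So were 15 of 32 genes of N-glycan assembly, 17 of 36 ERAD genes and 5 of 9 of the prolyl isomerase list. The same held for 10 of 18 UPR sensors and factors, 7 of 12 lectins and 27 of 40 genes of ER to Golgi traffic. The plot of both sets of genes by array shows replicate 2 on top for the chosen stress-response genes and replicate 1 for the chosen chaperones. These genes were picked after their values were seen, so the plot illustrates the gap and does not test it. In the full lists replicate 2 was higher for 21 of 24 immediate early and 9 of 13 hypertrophy genes. It was higher for 10 of 21 apoptosis and p53 target genes and 13 of 35 fatty acid genes.

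**Figure D5:**
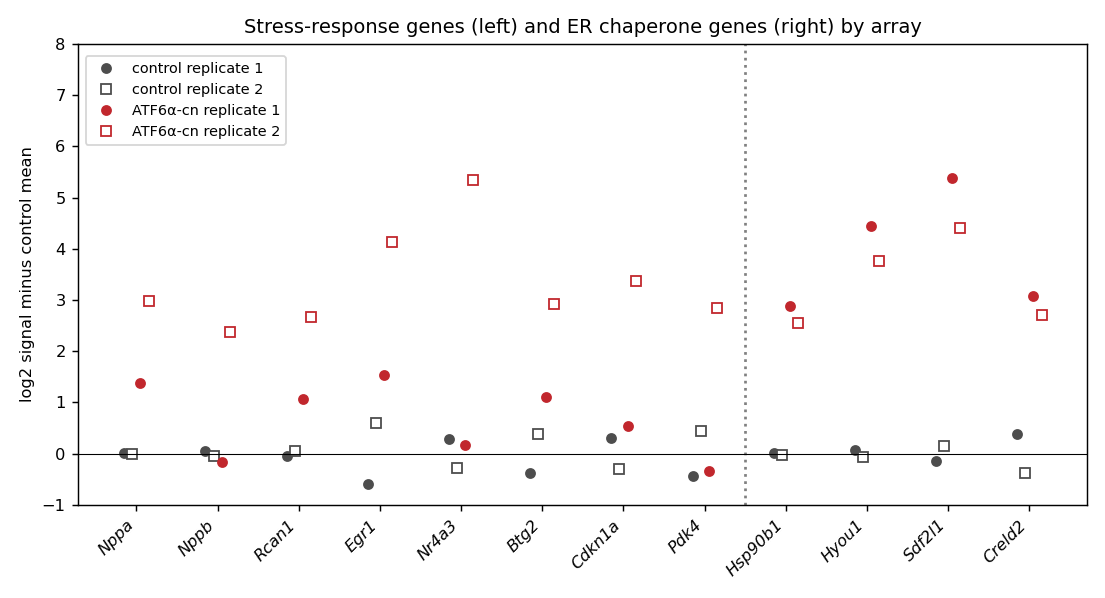
Log2 signal minus the mean of the 2 control arrays (vertical axis) for 8 stress-response genes (left of the dotted line) and 4 ER chaperone genes (right), with 1 point per array (circles, replicate 1; squares, replicate 2; grey, control; red, ATF6α-cn). Replicate 2 of ATF6α-cn is the highest point for each gene on the left, where Nr4a3 reaches 5.35 above the control mean. Replicate 1 is the highest for each gene on the right. Genes were picked for this plot after their values were seen.

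Of 19 circadian clock genes 0 passed (median −0.14), but the groups were separate for Arntl, which encodes BMAL1 and read 5.15 and 5.74 in control and 6.46 and 7.48 in ATF6α-cn (log2 fold change 1.52, adjusted p = 0.296 by limma), and for its partner Clock (0.89). The hour of tissue collection was not stated in the labels. Among 21 apoptosis and p53 target genes 0 passed (median 0.04), with Bcl2, the survival factor, at 0.74 after Cdkn1a.

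Markers of the cell types of the ventricle did not pass in either direction. The 10 ventricular myocyte markers had a median log2 fold change of 0.01 and mean signals of 17.6 on each of the 4 arrays. The 11 fibroblast markers had a median of 0.01 and means of 11.2 and 11.2 in control and 11.3 and 11.5 in ATF6α-cn, and the 10 macrophage markers a median of 0.12 and means of 8.27 and 8.53 against 8.47 and 8.63. The 9 endothelial markers had a median of 0.29, means of 12.1 and 12.2 against 12.2 and 12.7, and a median of 0.01 without ATF6α-cn replicate 2, in which 8 of the 9 were higher than in replicate 1. Smooth muscle and pericyte markers (9) had a median of 0.02. Of 6 atrial markers (median 0.08), 3 had both control arrays under background. Among the 6, Myl7 and Bmp10 were under background on every array, at 3.31 to 4.44, while Nppa was at 15.51 or more. The log2 fold changes of Sln and Stard10, also in this list, were 0.51 and −0.28. Of 27 collagen and matrix genes 0 passed and 21 were above 0 (median 0.20, and 0.05 without ATF6α-cn replicate 2), with Col1a2, a chain of type I collagen, at 0.82. Their part in the other results was not tested.

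Set directly against the 2 ATF6β-cn arrays, 11 clusters (0.0495%) were higher in ATF6α-cn and 49 (0.221%) lower at an adjusted p under 0.05 by limma. Of the 21 clusters that rose against control, Derl3 was higher than in ATF6β-cn by 3.95 on the log2 scale (adjusted p = 2.72e-04 by limma), Slc24a5 by 6.14 (adjusted p = 4.13e-05 by limma) and Ube2c by 2.23 (adjusted p = 0.0138 by limma). Fkbp7 was lower, at −1.46 (adjusted p = 0.0459 by limma). The other 17 did not pass, with differences from −2.08 for Sdf2l1 (adjusted p = 0.0584 by limma) to 1.63 for Pdia4 (adjusted p = 0.0514 by limma), which does not show that they were equal. BiP (Hspa5), near the top of the scale in both lines, differed by 0.34 and calreticulin by −0.08. The amounts of both transgene products were not measured here, so a difference between the lines cannot be told apart from one in dose. The study states that the lines did not express their products at equal levels.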

How the data were processed

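The deposited values were log2 signals that the authors had normalized between arrays, 1 value per probe set and array. The software, per the submitters' processing notes, was Affymetrix Expression Console; background correction, summary method and version: not given in the sources used here. A further deposited table, used only to name clusters, gives gene symbols (other content) beside the authors' own fold change and p-value for each line, and those 2 columns were not used. After 6640 controls were removed from 28846 probe sets, 22206 clusters were tested without a filter on signal. Clusters with several genes (836) or no symbol (3) entered no gene list. The brightest cluster stood for each of 132 genes that had more than 1. The lists (41) held 832 genes, 808 of them measured, 1 through a synonym.

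A linear model with a mean per group was fitted to all 6 arrays in limma 3.58.1 (R 4.3.3), with Benjamini-Hochberg adjustment over all clusters and 3 residual plus 5.63 prior degrees of freedom. The number of arrays limits the precision, and an exact permutation test of 2 against 2 cannot give a p under 0.333. Arrays with the same replicate number did not deviate together, so the numbers were not used as pairs. The calculation was tested on simulated data.

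Genes were named by rule: Atf6 and Atf6b, every cluster that passed, the 5 nearest to passing, the 10 lowest single-gene clusters with a 4-array mean above background and separate groups, genes the study blotted or measured by qPCR, and a few members of each list, at most 4 that passed and 3 that did not, by size of change. Other genes (ERSE holders, genes that differ within ATF6α-cn, some further list members) were chosen after their values were seen. Some list members are not reported here. Members and lists were chosen with earlier results of these data known. Alternatives were quantile normalization, centring, removal of dim clusters, a variance trend with robust fit, array weights, a replicate block and the 4 arrays alone. Further ones were each array left out, a Student t-test (adjusted and not), unadjusted p and fold alone.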

Additional observations from a re-analysis of the deposited data

Results flagged for a closer look

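Each gene here differed between ATF6α-cn and ATF6β-cn in a direct comparison of their arrays by limma, which flagged it among the genes the report names. On the log2 scale, ATF6α-cn minus ATF6β-cn, the differences were 6.14 for Slc24a5, 3.95 for Derl3 and 2.23 for Ube2c, all of which rose against control in ATF6α-cn. Fkbp7, which also rose against control in ATF6α-cn, was lower than in ATF6β-cn, at −1.46.

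Atf6b, carried in part by the ATF6β-cn transgene, differed by −5.89 (adjusted p = 4.13e-05 by limma). Dnaic1, the ciliary dynein chain close to the threshold in ATF6α-cn, differed by −3.40 (adjusted p = 0.00335 by limma). Dnajb9, the J-domain protein of the BiP system, differed by −1.75 (adjusted p = 0.0348 by limma). Causes of these differences were not tested.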

How the results depend on the processing

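The count of 21 clusters up and 0 down was the same under quantile normalization, centring and array weights, and was 26 up with dim clusters removed. A variance trend with a robust fit gave 59 up and 2 down (Cth and Rmrp), the 4 arrays alone 13 up and each array left out 9 to 13 up. With the replicate number as a block 15 rose and 1 fell (Gm7120), the numbers share no more than a name, and the calls of Hspa5, Calr, Dnajc3, Dnajb11, Fkbp7, Slc20a1 and Chka were lost. A Student t-test per cluster gave 679 up and 843 down unadjusted and 0 up and 0 down after Benjamini-Hochberg adjustment. Unadjusted p by limma gave 986 up and 995 down, and fold alone 220 up and 98 down. Among 152 named genes, 14 changed sign when 1 array was left out and under no other setting. All of them were without a call. The ranges of their log2 fold changes over the 4 arrays left out were Tsc1 (−0.87 to 0.10), Ucp1 (−0.057 to 0.75), Irx4 (−0.10 to 0.31), Ptprc (−0.16 to 0.91), S100a8 (−0.78 to 0.12), Retn (−0.82 to 0.10), Col3a1 (−0.071 to 1.13), Dolpp1 (−0.045 to 1.03), Nppb (−0.16 to 2.37), Pdk4 (−0.34 to 2.84), Stard10 (−0.70 to 0.13), Acta1 (−0.29 to 1.45), Tcap (−0.71 to 0.0044) and Atf6b (−0.028 to 0.51). For Nppb, Pdk4, Acta1, Atf6b, Col3a1, Dolpp1, Stard10 and Tcap the array that turned the sign was ATF6α-cn replicate 2. The cause of each change was not tested. Signals under 5.03 are bounds only.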
